A study of Mus musculus with 6 samples.

Results

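The nuclear-encoded genes of the respiratory chain were followed in cells sorted as young cortical neurons, from complex I, where electrons enter from NADH, to complex V, the ATP synthase. Members were the rows of the deposited table whose gene symbol begins with Ndufa, Ndufb, Ndufc, Ndufs, Ndufv, Uqcr, Cox4 to Cox8 or Atp5, or is Sdha, Sdhb, Sdhc or Sdhd. Symbols beginning with Ndufaf, which name assembly factors, and Ndufa4l2 were left out. The rule used names only and found 85 of 22544 rows, of which 37 belong to complex I, 4 to complex II, 8 to complex III, 19 to complex IV and 17 to complex V.

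The source was the cortex of mice of the Swiss Webster strain, aged 3 (P3) or 5 (P5) postnatal days, from which upper-layer neurons carrying green fluorescent protein had been sorted by fluorescence for RNA sequencing, 3 biological replicates per age. No genotype, treatment or sex separates the groups in the labels, and the labels do not say how the fluorescent protein was delivered or whether animals were pooled. The series asks how neurons gradually become post-mitotic, and its single comparison is P5 against P3. Levels are FPKM (fragments per unit of transcript length, relative to all mapped fragments), 1 value per age pooled over the replicates in the authors' deposited table. Levels are set side by side between genes only on the basis of this scaling by length. How far short transcripts or near-identical gene copies affect such comparisons was not tested. A log2 ratio is that of P5 to P3, and its standard error (SE) and 95% interval were derived from the deposited test statistic.

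Complexes I, III and IV pass electrons to oxygen and pump protons out of the mitochondrial matrix, complex II feeds electrons in from succinate without pumping, and complex V uses the returning protons to make ATP. Each complex has a catalytic centre and, except complex II, many small accessory subunits. Some subunits of complexes I, III, IV and V are encoded in the mitochondrial genome, and no mitochondrially encoded row was used here. Neurons depend heavily on this chain for the ion pumping behind electrical signalling.

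Transcripts of the chain were abundant at both ages. Of the 496 rows of the table with at least 100 FPKM at P3, 31 were members, as were 36 of the 486 such rows at P5, and 37 members reached this level at one age or the other. Their median FPKM was 58.3 at P3 and 74.7 at P5. Summed FPKM of all members was 9278 at P3 and 9984 at P5. The most abundant were Cox4i1, the largest nuclear-encoded subunit of complex IV, with 472.1 FPKM at P3 and 679.0 at P5, and Uqcrq, a small subunit of complex III, with 546.2 and 441.6. The order of the members by level was much alike at both ages, with a Spearman rho of 0.95 across the 85 genes as a description. These genes are not independent replicates, and both ages share gene lengths and annotation.

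**Figure D1:**
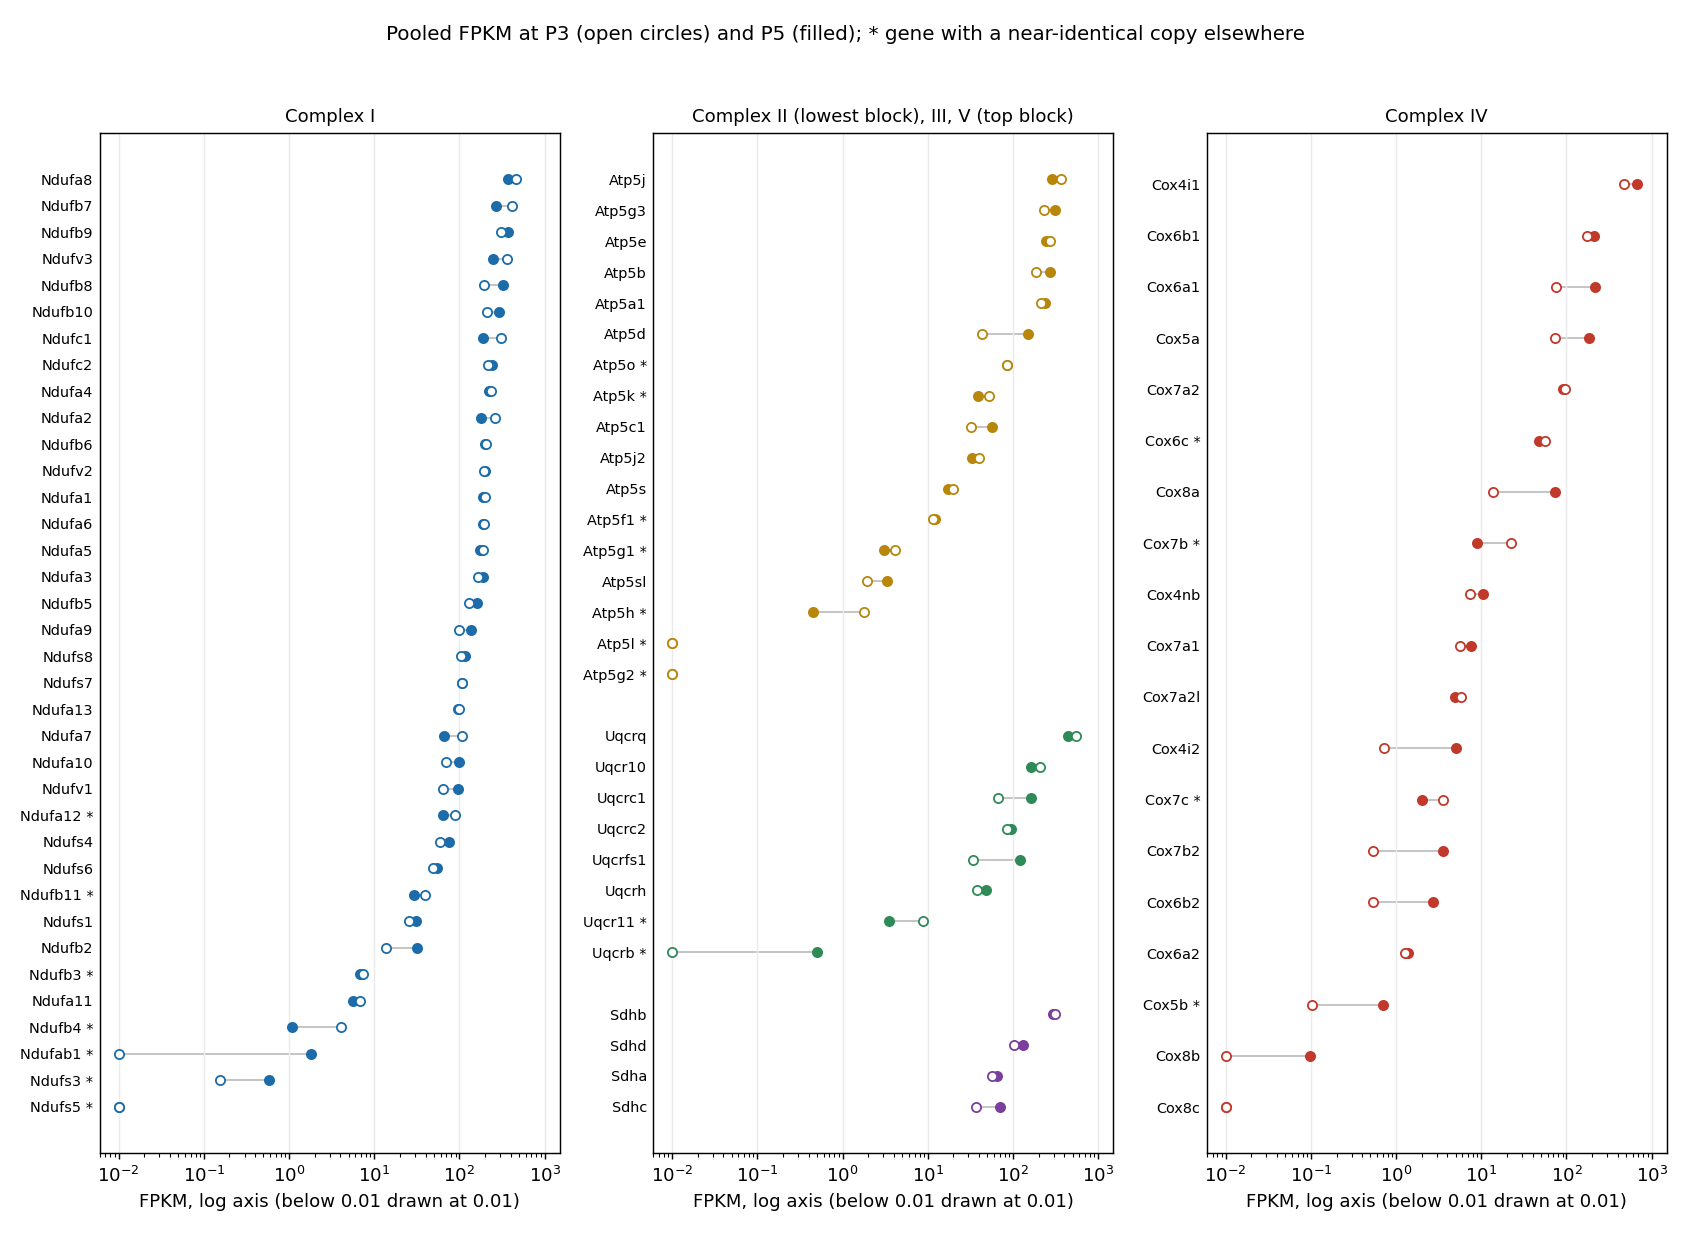
Pooled FPKM of the members on a log axis (1 is not drawn), open circles for P3 and filled circles for P5, by complex; values under 0.01 are drawn at 0.01, and an asterisk marks a gene with a near-identical copy elsewhere in the genome. The median member lies at 58.3 FPKM at P3 and 74.7 at P5, and the genes at the foot of each panel are mostly marked genes or isoforms of other tissues.

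No member differed between the ages by the authors' test. At q = 0.05 Cuffdiff called 0 of 79 tested members in the authors' deposited table, beside 0.00% of the 12865 rows tested. At an unadjusted p under 0.05 there were again 0 members, beside 0.770% of the rows, and no member had q under 0.999988. Of 78 members tested with FPKM above 0 at both ages, 44 had higher FPKM at P5 (56.4%), beside 55.6% of all such rows, so the members' split is that of the table. Among the 62 members with at least 10 FPKM at either age, 36 were higher at P5 (58.1%), beside 49.3% of the rows at that level. Of these 62, 8 were at least 2-fold higher (12.9%), beside 13.6% of the rows, among them Cox8a, Uqcrfs1, Atp5d, Cox6a1, Cox5a and Uqcrc1. Cox7b alone was at least 2-fold lower (1.61%), beside 7.13%. The median log2 ratio was 0.145 over the members and 0.130 over all tested rows. All 78 intervals contain 0, and the median SE was 1.003, so that a doubling lies within the error of a typical member. In bulk RNA of sorted cells, a different number of cells of a type and a different amount of RNA per cell cannot be told apart.

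Median log2 ratios were -0.016 for complex I, 0.273 for complex II, 0.181 for complex III, 0.490 for complex IV and 0.014 for complex V. The sign was not stable for complex I, at 0.087 without members whose locus overlaps another row or without those that have a near-identical copy. Nor was it for complex V, at -0.078 without overlapping loci and -0.117 centred on the median of all tested rows, while leaving out near-identical copies gave 0.303. Complex III was at 0.006 without overlapping loci. Summed FPKM at P5 was 0.975 of that at P3 for complex I, 1.11 for complex II, 1.05 for complex III and 1.13 for complex V. For complex IV it was 1.53, from 1009 at P3 to 1547 at P5, of which Cox4i1 alone accounted for 472.1 and 679.0. Differences between complexes were not tested, because the table holds no value per replicate.

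**Figure D2:**
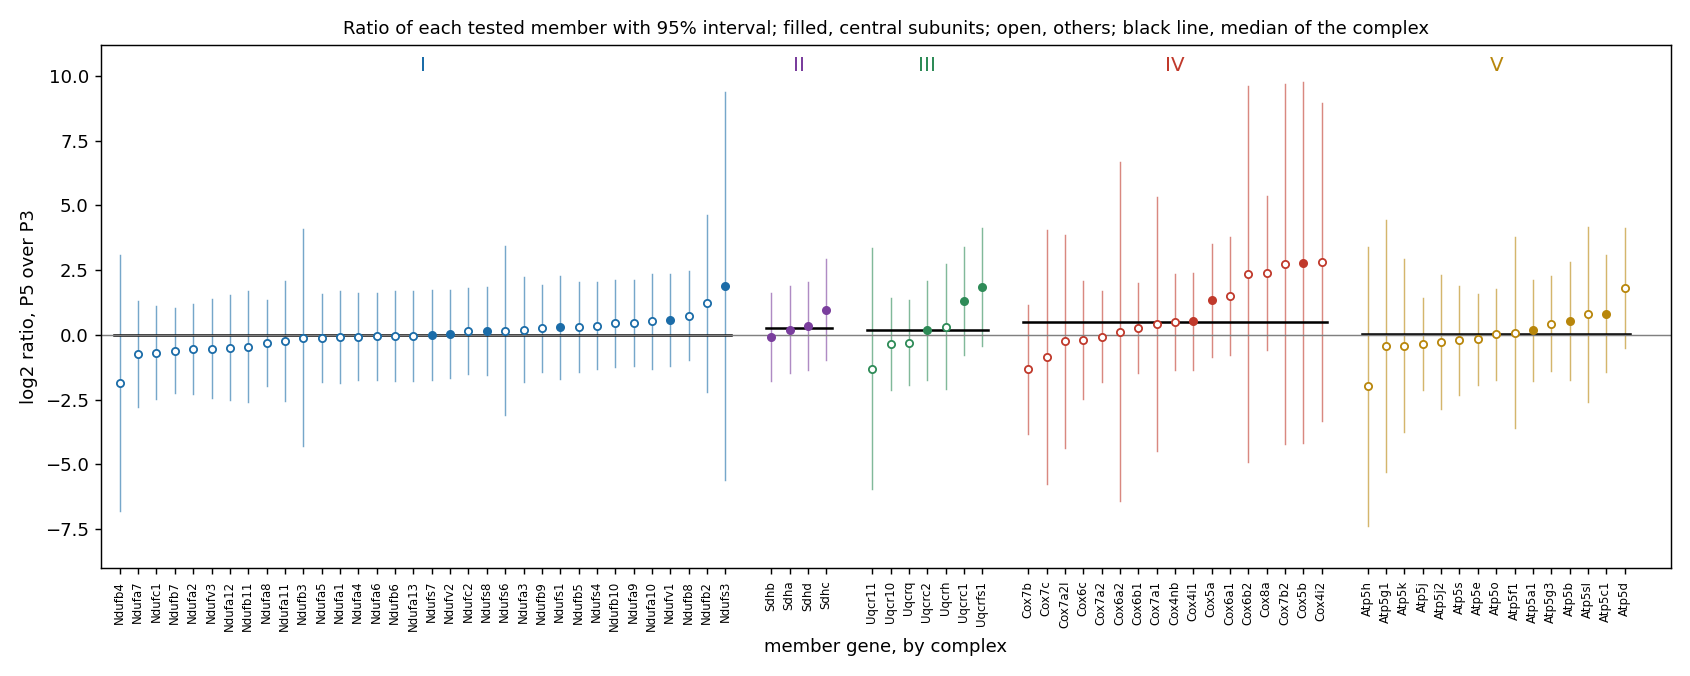
Log2 ratio of P5 over P3 for tested members with FPKM above 0 at both ages (1 is not drawn), by complex, with the 95% interval implied by the authors' test; filled points are central subunits, open points the others, and black lines the median over all tested members of each complex. Every interval crosses 0, all filled points but those of Ndufs7 and Sdhb lie above 0, and complex IV has the highest median, 0.490.

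Complex I, NADH dehydrogenase, has a peripheral arm in which 7 central nuclear-encoded subunits carry the flavin and the iron-sulphur clusters. Ndufv1, which binds NADH and flavin, had 64.6 FPKM at P3 and 96.2 at P5, and its partner Ndufv2 had 194.2 and 198.8. Ndufs7 and Ndufs8, which hold the clusters nearest to the quinone site, were at 108.0 and 106.8 FPKM, and at 104.9 and 116.5. Of these 4, Ndufv1 had the largest log2 ratio, 0.57 (SE 0.90). Ndufs1, the largest subunit of the complex, had 25.5 FPKM at P3 and 31.3 at P5, below most of its smaller partners.

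Ndufs3, which sits beside them in the peripheral arm, had only 0.156 FPKM at P3 and 0.578 at P5. Both values lie well under those of these 5 partners. Ndufs3 has a near-identical copy elsewhere in the genome, as described below, whose part in its levels was not tested.

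The accessory subunits of complex I surround this core. Ndufa8, in the intermembrane space, was the most abundant, with 464.2 FPKM at P3 and 375.0 at P5, and Ndufb7, also on that side, followed in mean level with 412.3 and 270.8. Ndufb7 (chr8:86090657-86095522 on mm9, as for all loci of members below) had a log2 ratio of -0.61 (SE 0.84, p = 0.469 in the authors' deposited table). Ndufc1, a small membrane subunit, had 304.1 FPKM at P3 and 188.3 FPKM at P5. Its log2 ratio was -0.69 (SE 0.92, p = 0.450 by the authors' Cuffdiff test). All 3 were lower at P5, by less than 1 SE.

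Of the 13 tested subunits with names in Ndufa, 3 had higher FPKM at P5 and 10 lower, whereas of the 7 with names in Ndufs, 6 were higher and 1 lower. Over all such rows of the table, 55.6% were higher. These counts by name were not tested. At the low end of complex I, after Ndufs3, came Ndufab1, the mitochondrial acyl carrier protein that is also a subunit, listed at 0 at P3 and with 1.82 FPKM at P5. Ndufb4, an accessory subunit of the membrane arm, had 4.02 FPKM at P3 and 1.10 FPKM at P5. Its log2 ratio of -1.88 had an SE of 2.52 (p = 0.457 by the authors' Cuffdiff test). Ndufab1 and Ndufb4 both have a near-identical copy elsewhere in the genome, as described below, whose part in their levels was not tested. Ndufs5 was listed at 0.000008 FPKM at both ages and was not tested. Its row has the same locus as the row BC002163, a pseudogene 99.4% identical to the coding sequence of Ndufs5, which had 40.4 FPKM at P3 and 37.9 at P5.

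Ndufa4 carries a complex I name but is now known as a subunit of complex IV. It had 232.2 FPKM at P3 and 221.6 at P5. Other members named for a complex that are not structural subunits of it were low. Cox4nb, a neighbour of Cox4i1 that codes for a membrane protein complex subunit of the endoplasmic reticulum, had 7.40 FPKM at P3 and 10.4 at P5. Cox7a2l, which helps to join complexes III and IV, had 5.85 and 4.91. Atp5s, a coupling factor, had 19.9 and 17.1, and Atp5sl, an assembly factor of complex I despite its name, had 1.94 and 3.35.

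Complex II, succinate dehydrogenase, is encoded wholly in the nucleus. Sdhb, its iron-sulphur subunit, had 312.9 FPKM at P3 and 295.3 at P5, and Sdha, the flavin subunit it sits on, had 57.1 and 65.7. The membrane anchors Sdhc and Sdhd had 36.3 and 102.2 FPKM at P3, and 71.1 and 129.6 at P5. Transcript levels of the 4 subunits, which stand 1 to 1 in the protein complex, thus spanned from 36.3 to 312.9 FPKM at P3. Sdhc had the largest ratio of the complex, 0.97 (SE 0.99, p = 0.328 in the authors' deposited table).

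In complex III, cytochrome bc1, the 3 central nuclear-encoded subunits had higher FPKM at P5. Uqcrfs1, the Rieske iron-sulphur protein (chr13:30632181-30637185), had 34.1 FPKM at P3 and 121.7 FPKM at P5. Its log2 ratio was 1.83 (SE 1.16, 95% interval -0.44 to 4.11, p = 0.114, q = 0.999988 by the authors' Cuffdiff test). Uqcrc1, a core scaffold subunit, had 66.6 and 164.3 FPKM (log2 ratio 1.30, SE 1.06, p = 0.220 in the authors' deposited table). Uqcrc2, its partner, had 84.6 and 95.9. Together they had 185.4 FPKM at P3 and 381.9 at P5, 2.06 times as much. The 5 small subunits had 803.1 at P3 and 658.3 at P5, of which Uqcrq held most and Uqcr10, a small membrane subunit, held 209.7 and 164.8. At the low end Uqcr11, the smallest subunit, had 8.76 and 3.54 FPKM, and Uqcrb, which sits by the quinone site, was listed at 0 at P3 and had 0.495 at P5. Uqcr11 and Uqcrb both have near-identical copies elsewhere in the genome, as described below, whose part in their levels was not tested.

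In complex IV, cytochrome c oxidase, the catalytic subunits are encoded in the mitochondrial genome, and Cox4i1, Cox5a and Cox5b were taken as the central nuclear-encoded ones. Cox4i1 (chr8:123192190-123198109) had a log2 ratio of 0.52 (SE 0.95). Cox5a had 73.0 FPKM at P3 and 183.3 FPKM at P5, with 1.33 as log2 ratio (SE 1.12, p = 0.234 in the authors' deposited table). Cox5b, its counterpart on the matrix side, had 0.103 and 0.710 FPKM, lower than Cox5a by more than 100-fold at each age. Cox5b has a near-identical copy elsewhere in the genome, as described below, whose part in this gap was not tested. Cox6b1, on the intermembrane side, was second in mean level over the ages in the complex, with 174.7 FPKM at P3 and 210.1 at P5.

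Cox8a, the ubiquitous form of a small membrane subunit (chr19:7289648-7292106), had the lowest p of all members. Its FPKM was 13.9 at P3 and 72.9 at P5, and its log2 ratio 2.39 (SE 1.51, 95% interval -0.57 to 5.35, p = 0.113, q = 0.999988 by the authors' Cuffdiff test). Cox6a1, a subunit near the dimer interface (chr5:115795663-115798964), had 75.8 and 216.5 FPKM, a log2 ratio of 1.51 (SE 1.16, p = 0.193 in the authors' deposited table). Cox7b, a membrane subunit, went the other way with 22.05 FPKM at P3 and 8.81 FPKM at P5. Its log2 ratio was -1.32 (SE 1.27, p = 0.298 by the authors' Cuffdiff test), the lowest p among members lower at P5. None of these 3 ratios passed the test. Cox7b has near-identical copies elsewhere in the genome, of the kind described below, whose part in its levels was not tested.

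Several subunits of complex IV exist as alternative genes used in different tissues. The ubiquitous form made up over 90% of the family's FPKM at both ages except in the Cox7b family at P5. Cox4i1 held 99.8% of the Cox4i total at P3 and 99.3% at P5 against Cox4i2, the form of lung and oxygen-sensing cells, which had 0.712 and 5.01 FPKM. Cox6a1 held 98.3% and 99.4% against Cox6a2, the heart and muscle form, at 1.27 and 1.39 FPKM. Cox6b1 held 99.7% and 98.7% against Cox6b2, the testis form, at 0.529 and 2.68 FPKM.

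Cox7a2 held 94.4% at P3 and 92.3% at P5, and Cox7a1, the heart and muscle form, was the highest of the forms of other tissues with 5.67 and 7.53 FPKM. Cox8a held 100% and 99.9%, with Cox8b, the heart and muscle form, listed at 0 at P3 and at 0.0978 FPKM at P5, and Cox8c, a testis form, listed at 0 at both ages. In the Cox7b family the share of Cox7b was 97.6% at P3 and 71.0% at P5. Cox7b2, a testis form, had 0.542 and 3.59 FPKM, and Cox7b itself had 22.05 and 8.81. The SE of the log2 ratio of Cox7b2 was 3.55, so this share is uncertain. Cox7b has 2 near-identical copies, whose part in this share was not tested.

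Complex V, the ATP synthase, consists of the F1 head in the matrix and a membrane part with stalks. In the head, Atp5a1 and Atp5b, which form the catalytic ring, had 211.6 and 188.2 FPKM at P3 and 239.4 and 272.3 at P5. Atp5c1, the central shaft, had 31.8 and 56.2 FPKM. Atp5d, at the foot of the shaft (chr10:79605060-79608563), had 43.1 FPKM at P3 and 151.3 FPKM at P5. Its log2 ratio was 1.81 (SE 1.18, 95% interval -0.50 to 4.12, p = 0.124, q = 0.999988 by the authors' Cuffdiff test). Atp5e, the smallest head subunit, had 273.1 and 242.7. Summed over these 5 genes the head had 747.8 FPKM at P3 and 961.8 at P5.

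The membrane part and stalks, 10 genes, had 791.7 FPKM at P3 and 773.8 at P5. Atp5j, a stalk subunit, was the most abundant with 366.7 and 290.1. The c ring, through which protons turn the enzyme, has identical mature protein from 3 genes. Atp5g3 had 230.6 FPKM at P3 and 310.2 at P5 and held 98.2% and 99.0% of that family, Atp5g1 had 4.13 and 3.06, and Atp5g2 was listed at 0 at both ages. Atp5g1 and Atp5g2 both have a near-identical copy elsewhere in the genome, as described below, whose part in this share was not tested. Atp5h, a stalk subunit, had only 1.78 and 0.448 FPKM (log2 ratio -1.99, SE 2.75, p = 0.469 in the authors' deposited table), and Atp5l, a small membrane subunit, was listed at 0 at both ages. Atp5h and Atp5l have near-identical copies of the same kind, whose part in their levels was not tested.

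Some very low values belong to subunits that every working respiratory chain contains, such as Ndufs3, Cox5b, Uqcrb and Atp5l. Their coding sequences were therefore compared with all other annotated mouse transcripts (GENCODE M21, build GRCm38). A near-identical copy was defined as another gene that matches at least 80% of the coding sequence at 95% identity or more, and 20 of the 85 members had one. These members made 37 pairs with a copy, and 35 of the copies are annotated as pseudogenes, mostly processed ones, which are copies of a spliced transcript inserted elsewhere in the genome.

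The following stretches, coding bases 91 to 150 of the member and the aligned bases of a copy, show how little sequence distinguishes them. Capitals mark bases that differ between the member and its copy. In GRCm38 the stretch of the copy lies at chr7:23947083-23947142 for Gm10175, chr13:21501269-21501328 for Gm11273, chr11:58393411-58393470 for Gm12251 and chr1:170925495-170925554 for Gm2962, all on the minus strand. Gm11273 is annotated as protein-coding and the other three as pseudogenes.
Atp5g2: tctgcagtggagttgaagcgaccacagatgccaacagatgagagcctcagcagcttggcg
Gm10175: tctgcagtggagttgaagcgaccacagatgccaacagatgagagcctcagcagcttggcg
Cox5b: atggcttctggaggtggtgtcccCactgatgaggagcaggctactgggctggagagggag
Gm11273: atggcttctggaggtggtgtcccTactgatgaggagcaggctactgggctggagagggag
Ndufs3: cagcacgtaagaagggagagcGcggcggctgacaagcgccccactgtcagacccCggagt
Gm12251: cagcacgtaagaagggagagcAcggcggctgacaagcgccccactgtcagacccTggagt
Uqcrb: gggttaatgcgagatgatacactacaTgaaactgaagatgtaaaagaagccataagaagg
Gm2962: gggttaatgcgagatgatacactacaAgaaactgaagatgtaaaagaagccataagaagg
Over these 60 bases the number of differences is 0 for Atp5g2, 1 for Cox5b, 2 for Ndufs3 and 1 for Uqcrb.

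Members with a copy were listed at far lower levels than those without. Median FPKM of the 20 members with a copy was 4.08 at P3 and 2.54 at P5, whereas the 65 without had 98.4 and 129.6. With copies counted from 90% identity, 33 members had one, and their median at P5 was 28.97 FPKM. Within the first group, the 14 whose best copy is at least 98% identical had medians of 0.970 and 0.903, and the 6 with a less similar copy had 45.8 and 34.0. None of the 37 members with at least 100 FPKM at either age had a copy. Of the 17 members under 5 FPKM at both ages, 11 had a copy, 5 were isoforms of other tissues and 1, Atp5sl, was neither.

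The group with copies was not uniform. Ndufa12, an accessory subunit of complex I with a copy 99.5% identical, had 89.4 FPKM at P3 and 63.7 at P5, and Atp5o, a stalk subunit whose copy is 97.0% identical, had 84.7 and 85.5. Atp5l, with 8 copies, and Atp5g2, whose 2 copies match its whole coding sequence at 100% identity, were both listed at 0. How reads that match several places were counted is not given in the sources used here, and its part in these levels was not tested. An FPKM of 0 for such a gene is therefore given only as the listed value. The pairs are between annotated genes of GRCm38, a newer build than that of the table. Only 2 of the copies had a row under their name: BC002163, whose row has the locus of Ndufs5, and Gm10012, a copy of Cox7c. Gm10012 was listed at 0.173 FPKM at P3 and 0 at P5.

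**Figure D3:**
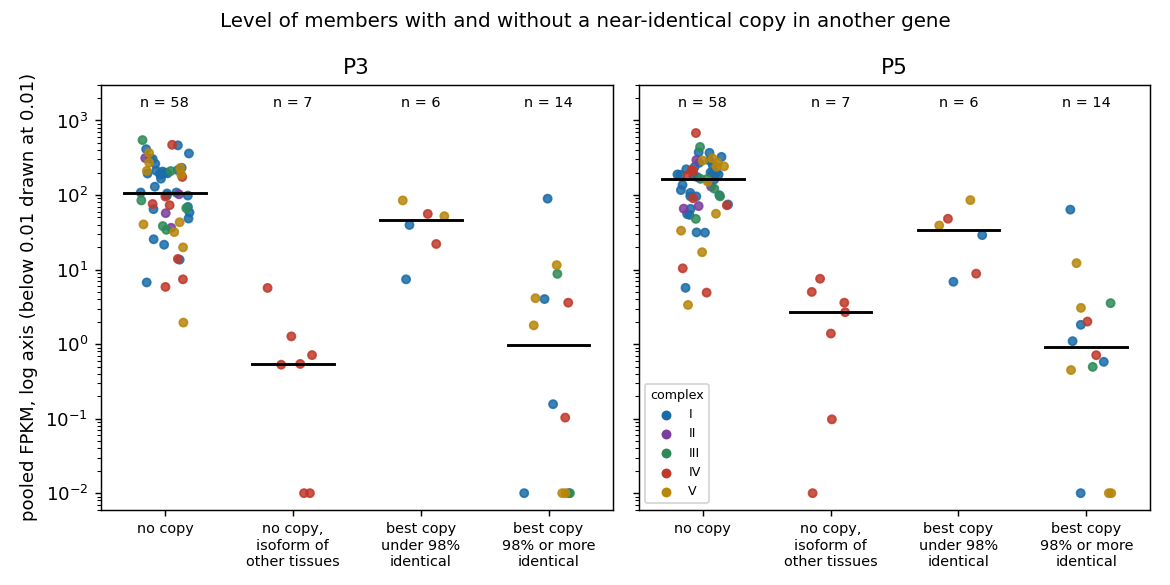
Pooled FPKM of the 85 members on a log axis at P3 (left) and P5 (right), split by whether the coding sequence has a near-identical copy in another gene; points are genes coloured by complex, black lines are medians, and values under 0.01 are drawn at 0.01. Members without a copy centre near 106.5 FPKM at P3 and 162.7 at P5 once isoforms of other tissues are set apart, and members with a copy at least 98% identical centre near 1 FPKM.

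Central subunits more often had higher FPKM at P5 than accessory ones, a comparison chosen after the values were seen. The central subunits are the 7 of complex I, the 4 of complex II and the 3 each of complexes III, IV and V described above (Atp5a1, Atp5b and Atp5c1 in complex V). All other members were counted as accessory, except those that are not subunits of the complex they are named for. Accessory thus includes Atp5d and Atp5e of the F1 head, the c ring genes and, in complex IV, the isoforms of other tissues. The medians depend on this division. Of the 20 central subunits, 18 were higher at P5, with a median log2 ratio of 0.529. Of 53 accessory subunits tested with FPKM above 0 at both ages, 24 were higher, with a median of -0.048. Over all such rows of the table, 55.6% were higher. Without members that have a near-identical copy, 22 of 40 accessory subunits were higher, with a median of 0.152. Of the central ones 16 of 18 were then higher, with a median of 0.434. In members with at least 10 FPKM at either age the counts were 16 of 18 and 19 of 41, beside 49.3% of all rows at that level. The median of the central subunits was above that of the accessory ones in each of the 4 complexes that have both, at 0.295 against -0.048 in complex I, 1.302 against -0.327 in complex III, 1.328 against 0.338 in complex IV and 0.533 against -0.225 in complex V. These medians per complex include members that have a near-identical copy. The difference of the medians over all complexes was 0.577, and 0.282 without such members. It was not tested, and no single subunit in either group passed the authors' test.

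Central subunits are also longer. Over the 62 members with at least 10 FPKM at either age, the log2 ratio went with coding length at a Spearman rho of 0.41, given as a description across genes that share 2 pooled values. In the 15 members with up to 300 coding bases, 3 had higher FPKM at P5 and the median log2 ratio was -0.216, and in the 17 above 300 and up to 500 bases 8 were higher, with a median of -0.038. In the 16 members above 500 and up to 800 bases, 13 were higher, with a median of 0.284, and in the 10 above 800 and up to 1500 bases, 8 were higher, with a median of 0.548. All 4 longer members were higher, with a lower median of 0.248. Over 4877 rows of the table at the same level the rho was -0.19, and the medians in the same 5 ranges of length, from the shortest, were -0.010, 0.070, 0.159, 0.072 and -0.205. The part of transcript length in the difference between central and accessory subunits was not tested.

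**Figure D4:**
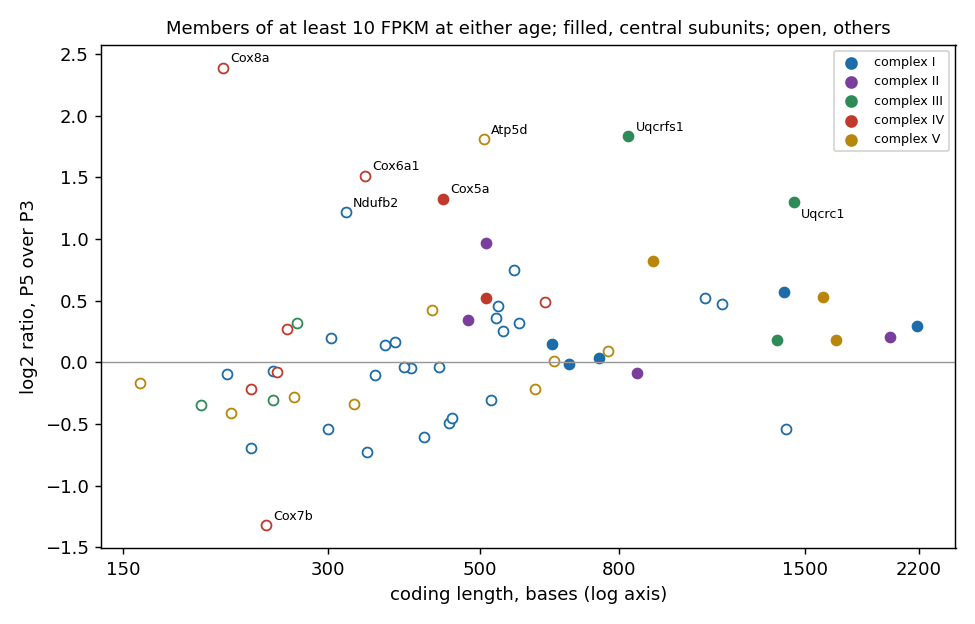
Log2 ratio of P5 over P3 against coding length in bases (log axis) for members with at least 10 FPKM at either age (1 is not drawn), coloured by complex, filled for central subunits and open for others; named genes are at least 2-fold apart between the ages. Most members under 300 bases lie below 0 and most above 500 bases lie above it, with Cox8a the highest of the short genes.

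The other genes of the pathway showed no call either, with 0.00% of rows called at q = 0.05. Of the assembly factors listed, 31 had a row. Of the 30 that could be compared, 14 had higher FPKM at P5, beside 55.6% of all such rows. Their median log2 ratio was -0.099. In complex I, Ndufaf2, which binds a late assembly intermediate, had 130.2 FPKM at P3 and 68.1 at P5, Tmem126b had 33.3 and 49.2, and Ecsit had 19.7 and 36.3. For complex II, Sdhaf2, which helps to insert flavin, had 6.72 and 10.6 FPKM, and Sdhaf1 had 2.88 and 6.67. For complex III, Ttc19 had 13.02 and 11, Uqcc 9.89 and 12.1, Bcs1l, which inserts the Rieske protein, 5.67 and 7.94, and Lyrm7, its chaperone, 0.594 and 0.327. The copper chaperones of complex IV, Cox17 and Cox19, had 105.0 and 71.2, and 60.05 and 58.4, and Surf1, which acts on the catalytic subunit, had 30.3 and 27.2. Sco1, which hands copper to complex IV, had 9.47 and 4.12 FPKM (log2 ratio -1.20, SE 1.08, p = 0.266 in the authors' deposited table), and Cox16 had 13.9 and 7.44. For complex V, Atpaf2 had 17.5 and 15.1, Tmem70 8.95 and 15.3, and Atpaf1 was listed at 0 at P3 and 0.142 at P5. Atpif1, the inhibitor that stops the ATP synthase from running backwards, had 519.8 FPKM at P3 and 375.1 at P5.

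Among electron carriers and the enzymes that make ubiquinone, 12 of 16 had higher FPKM at P5, beside 55.6% of all tested rows above 0 at both ages. Their median log2 ratio was 0.417, with a median SE of 1.546. Etfb, which feeds electrons from fatty acid oxidation, had 124.4 FPKM at P3 and 102.6 at P5, its partner Etfa had 26.3 and 26.5, and Coq7, an enzyme of ubiquinone synthesis, had 51.3 and 36.9. Coq4 and Coq3, of the same pathway, had 2.44 and 7.11 (log2 ratio 1.54, SE 1.69), and 8.73 and 15.5. Cycs, the somatic cytochrome c that links complexes III and IV, was listed at 0.624 and 0.833 FPKM. The search for near-identical copies covered members only, so Cycs was not searched for copies. Of the regulators of mitochondrial biogenesis, 7 of 15 had higher FPKM at P5, beside the same 55.6%. Tfam, which packages mitochondrial DNA, had 16.9 FPKM at P3 and 12.5 at P5, Polg2, a subunit of the mitochondrial DNA polymerase, had 28.7 and 15.2, and its catalytic partner Polg had 10.6 and 4.55 (log2 ratio -1.21, SE 1.12, p = 0.277 in the authors' deposited table). Gabpb1 and Gabpb2, partners of Gabpa, had 9.27 and 11.01, and 0.212 and 1.17. Ppargc1a, a coactivator of respiratory genes, had 3.80 and 5.71.

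Nuclear genes of the chain are known to share promoter motifs bound by NRF1, by ETS factors of the GABP type and by YY1. RefSeq promoters (GRCm38.p6, 250 bases before to 50 after the start) were found for 68 of the 85 members, 74 promoters in all. The NRF1 motif, GCGCA and GCGC with any 1 base between them, searched on both strands, was in 24.3% of them and in 1512 of all 32851 promoters (4.60%). The ETS motif CCGGAAG was in 21.6% and 8.86%, and the YY1 motif AAGATGGC in 14.9% and 2.75%. Examples are shown for members whose ratios are given above, with the motif in capitals. The windows are chr5:115349086-115349145 on the minus strand for Cox6a1, chr8:83566711-83566757 on the plus strand for Ndufb7 and chr11:115420026-115420085 on the minus strand for Atp5h.
Cox6a1: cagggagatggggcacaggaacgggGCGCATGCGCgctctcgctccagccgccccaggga
Ndufb7: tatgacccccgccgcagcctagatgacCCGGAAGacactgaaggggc
Atp5h: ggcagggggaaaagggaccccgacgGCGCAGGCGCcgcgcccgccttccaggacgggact
The motif begins 162 bases before the start of Cox6a1, 20 before that of Ndufb7 and 141 before that of Atp5h. Median log2 ratios were 0.014 with and 0.087 without the NRF1 motif, -0.042 and 0.087 for the ETS motif, and 0.179 and 0.014 for the YY1 motif. Nrf1 itself had 5.99 FPKM at P3 and 4.04 at P5, Gabpa 2.86 and 6.04, and Yy1 7.07 and 7.81, none of them past the authors' test.

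The sorted cells carried transcripts of several cell types. The 10 upper-layer neuron markers were all above 0 at both ages, and summed to 496.9 FPKM at P3 and 512.5 at P5. The pan-neuronal markers summed to 466.1 and 1109, higher at P5 in 7 of 7. Astrocyte markers summed to 2661 and 3216, higher in 10 of 12. This sum was above those of the pan-neuronal and the upper-layer markers at both ages, though the lists differ in length. Oligodendrocyte markers summed to 151.8 and 329.3, higher in 10 of the 10 that could be compared, with Mag and Mog listed at 0 at P3. Microglia markers summed to 25.5 and 190.0, higher in 13 of the 13 that could be compared, with Itgam listed at 0 at P3. Endothelial and mural markers summed to 950.1 and 1014, of which Rgs5 alone held 910.6 and 905.3. Of these 13 markers, 3 were at 0 at P3 and 1 at P5, and 8 of the 10 that could be compared were higher at P5, with a median log2 ratio of 2.64. Interneuron markers summed to 697.6 and 821.7 (5 of 9 higher), of which Sp8 alone held 445.2 and 310.2. Erythroid markers summed to 2.62 and 71.1, of which Hbb-b2 alone held 1.90 and 63.2. Of the 5 erythroid markers with a row, 2 could be compared. Over all rows that could be compared, 55.6% were higher at P5. The part of these cell types in the levels and ratios of respiratory chain genes was not tested.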

How the data were processed

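RNA sequencing of 6 samples, 3 per age as their titles state, was deposited as 1 table of gene-level values. The submitters' processing notes name TopHat, Cuffdiff 2.02 and mm9. Not given in the sources used here are the annotation, read length, strandedness and handling of reads that match several places. Per the file headers, the authors deposited 1 pooled FPKM per age, a log2 ratio and a test statistic (both handled as scores, since they hold a placeholder where an age is at 0), a p-value and a q-value. Depth is unknown, and no value per replicate was used, so the test is the authors' Cuffdiff test.

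The SE was the log2 ratio divided by the test statistic. Of 85 members, 79 had been tested. Atp5g2, Atp5l, Cox8b, Cox8c, Ndufs5 and Uqcrb had not. Ndufab1 was tested but listed at 0 at P3, which leaves 78 ratios. The loci of 9 members overlap another row, and without strand information such reads cannot be told apart. Coordinates of members are mm9, counted from 1. Copies were sought with BLAST 2.17.0 in GENCODE M21 transcripts. Summaries used pandas 2.3.3 and scipy 1.17.1, and the scripts were tested on simulated data.

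Genes were named by role (central subunits, tissue isoforms, members that are not subunits), by the 2 highest and 2 lowest levels per complex, by the 5 lowest p in each direction, and where listed at 0 or not tested. One gene that this rule names is not reported here, though counts and medians include it. Of the other pathway lists, the genes with the 3 highest levels and 2 lowest p were named, and cell type markers are given as sums. The members and lists were chosen with earlier results of these data known. Further genes, the split by role, by copies and by length, and the examples of sequence were chosen after the values were seen. Alternatives covered the q threshold, Bonferroni adjustment, minimum FPKM, pseudocounts of 1 and 0.1, centring, means, and the members left out.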

Additional observations from a re-analysis of the deposited data

How the results depend on the processing

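No paired analysis was possible because the table holds 1 pooled value per age, and for the same reason no replicate could be left out. No member was called by the authors' test at q = 0.01 or after Bonferroni adjustment either. Of the recomputed values, 61 stayed within 0.1 on the log2 scale or 1.5 times for counts and levels, and 21 moved further. Centred on the median of all tested rows, the median log2 ratio was 0.015 for all members, -0.146 for complex I, 0.143 for complex II, 0.050 for complex III, 0.360 for complex IV and -0.117 for complex V. As means, all members gave 0.270 and complex IV 0.883. Without overlapping loci complex I gave 0.087, complex III 0.006 and complex V -0.078. Without near-identical copies complex I gave 0.087 and complex V 0.303, so that the signs for both turn with which members enter, and that for complex V also with the centring. Complex I was also above 0 as a mean (0.061), at 10 FPKM or more (0.034) and without Ndufa4 (0.009). Without the most abundant member the log2 ratio of summed FPKM was 0.446 for complex II, 0.437 for complex III and 0.295 for complex V. The central minus accessory difference was 0.475 at 10 FPKM or more, 0.282 without copies, 0.383 with both limits and 0.450 without complex IV. The median P5 FPKM of members with a copy was 28.97 when copies were counted from 90% identity (33 genes) and 0.903 from 98%. The last 2 kinds of alternative, the limit of 10 FPKM and the removal of copies were chosen after seeing the data.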
